A study of Mus musculus with 4 samples.

Results

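Cxcr4, Itga4, Itga5, Itga6, Itgb1, Itgal, Cd44, Selplg and Vcam1 encode proteins by which blood-forming cells home to and hold on to the bone marrow niche. They were taken as the rows with these symbols in both count matrices, which gave 9 of 32285 genes. The rows were picked by symbol and not by a measured value, but the list was chosen with earlier results of these data known. The cells came from bone marrow of 2 male mice of genotype Tppp3CreER LSLTdTomato, in which a tamoxifen-inducible Cre under Tppp3 switches on a tdTomato reporter. Every group shared the genotype, the tamoxifen injections at postnatal days 0 and 3, the age of 3 months and the sort for Lin-Sca+Kit+ cells, a compartment of stem cells and multipotent progenitors. The groups compared were tdTomato-positive and tdTomato-negative cells, sorted from each mouse into 2 tubes, so tdTomato marks cells whose ancestors had active Cre in the newborn and not cells that transcribe Tppp3 at 3 months. The 4 tubes carried 1 hashtag antibody each and were run on 2 droplet chemistries of 10x Genomics, GEM-X and v3.1, with 1 gene expression library per chemistry.

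Blood stem cells are kept in the marrow by the chemokine CXCL12, made by stromal cells, acting on its receptor CXCR4. Integrins are pairs of an alpha and a beta chain: ITGB1 pairs with ITGA4 to bind VCAM1 and fibronectin, with ITGA5 to bind fibronectin and with ITGA6 to bind laminin, while ITGAL pairs with ITGB2 to bind the ICAMs. CD44 binds hyaluronan, and SELPLG carries the sugars that selectins on the vessel wall catch when a circulating cell rolls. VCAM1 is the ligand of this set, best known on endothelial cells, stromal cells and marrow macrophages, and it has also been found on stem cells.

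The genes are spread over 7 chromosomes of the mm10 genome. Itga4 (chr2:79255426-79333123, plus strand), Itga6 (chr2:71745616-71858416, plus) and Cd44 (chr2:102811141-102901665, minus) lie on chromosome 2. Cxcr4 lies at chr1:128588199-128592293 (minus), Vcam1 at chr3:116109949-116129688 (minus), Selplg at chr5:113818536-113832644 (minus), Itgal at chr7:127296260-127335138 (plus), Itgb1 at chr8:128685654-128733200 (plus) and Itga5 at chr15:103344286-103366763 (minus). Exons of Itga4 overlap those of Cerkl on the opposite strand, and exons of Vcam1 overlap those of Gm43109 on the opposite strand. The sources used here do not say whether counting used strand.

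RefSeq promoter windows, 250 bases before to 50 after the start (GRCm38.p6), were found for 5 of the 9 genes: Cd44, Cxcr4, Itga4, Itga5 and Itgb1. The windows of Itga4 and Itga5 are shown because both chains pair with the same beta chain, while their levels were ordered differently over the cell clusters below. Capitals mark a match, on either strand, to TGTGGT, the core of the motif bound by RUNX factors.
Itga4, chr2:79255176-79255475, plus strand: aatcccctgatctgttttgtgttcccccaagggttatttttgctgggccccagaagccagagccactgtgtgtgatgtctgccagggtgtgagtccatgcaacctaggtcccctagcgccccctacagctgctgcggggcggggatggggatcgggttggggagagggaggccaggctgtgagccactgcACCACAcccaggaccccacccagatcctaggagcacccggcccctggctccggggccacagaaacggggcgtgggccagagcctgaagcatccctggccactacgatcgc
Itga5, chr15:103366742-103367041, minus strand: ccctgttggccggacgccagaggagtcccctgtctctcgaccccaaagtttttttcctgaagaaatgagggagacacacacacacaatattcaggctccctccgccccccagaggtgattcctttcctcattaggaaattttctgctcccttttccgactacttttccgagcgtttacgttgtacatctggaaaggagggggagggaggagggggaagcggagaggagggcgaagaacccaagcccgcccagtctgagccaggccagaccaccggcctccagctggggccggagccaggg
The window of Itga4 held 1 RUNX match, and that of Itga5 held none. Of all 32851 promoter windows of this length, 16.8% held a RUNX match. AGATAA, the core that GATA factors bind, had 1 match in the window of Cd44 and none in the other 4, against 11.2% of all windows. GGAAGT (ETS, 23.8% of all windows) and TGACGTCA (CREB, 1.79%) had no match in the 5 windows, and neither overlaps the other motifs. A match describes letters only, and its absence says nothing of a factor.

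The analysis used 32330 cells with exactly 1 hashtag: 3867 and 12144 from the positive and negative tubes of mouse 1, and 3933 and 12386 from those of mouse 2. In all, 234563105 UMIs were counted in GEM-X and 178214937 in v3.1, and no barcode was shared between them. Levels are given in CPM, the UMIs of a gene summed over the cells of a tube and scaled to a common total, with means ± SD over the 4 tubes. Each mouse gave a positive and a negative tube. Clustering without these 9 genes gave 17 clusters, and only 8 clusters could be named from markers. HSC-like cells (6899 cells, clusters 1 and 2) had 15 and 12 of 15 stem cell markers raised. The lymphoid-like cluster 7 (2283 cells), the megakaryocyte-platelet-like cluster 9 (1859), the neutrophil-like cluster 13 (430), the B cell-like cluster 14 (195), the erythroid-like cluster 15 (167) and the T and NK cell-like cluster 16 (78) were the others. Cluster 13 also met the marker rule for granulocyte-monocyte (14 of 15 markers), macrophage-dendritic (5 of 5) and mast-basophil (5 of 5) cells, and may hold several cell types. Cluster 1 also met the macrophage-dendritic rule (4 of 5), cluster 9 the mast-basophil rule (4 of 5) and cluster 16 the lymphoid rule (9 of 12). The sort marker Kit was at 68.8 CPM in cluster 14 against 330.8 CPM in all cells, and Ly6a (Sca-1) was at 4.87 CPM in cluster 15 against 61.5 CPM. The 9 unnamed clusters held 63.2% of the cells, and cluster 11 among them had a median UMI count of 0.31 times that of its library. Cluster 11 met the endothelial and stromal rule (4 of 4 detected markers) but was left unnamed for its few UMIs. Clusters are described and not tested, since cells were put in them by their expression.

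**Figure D1:**
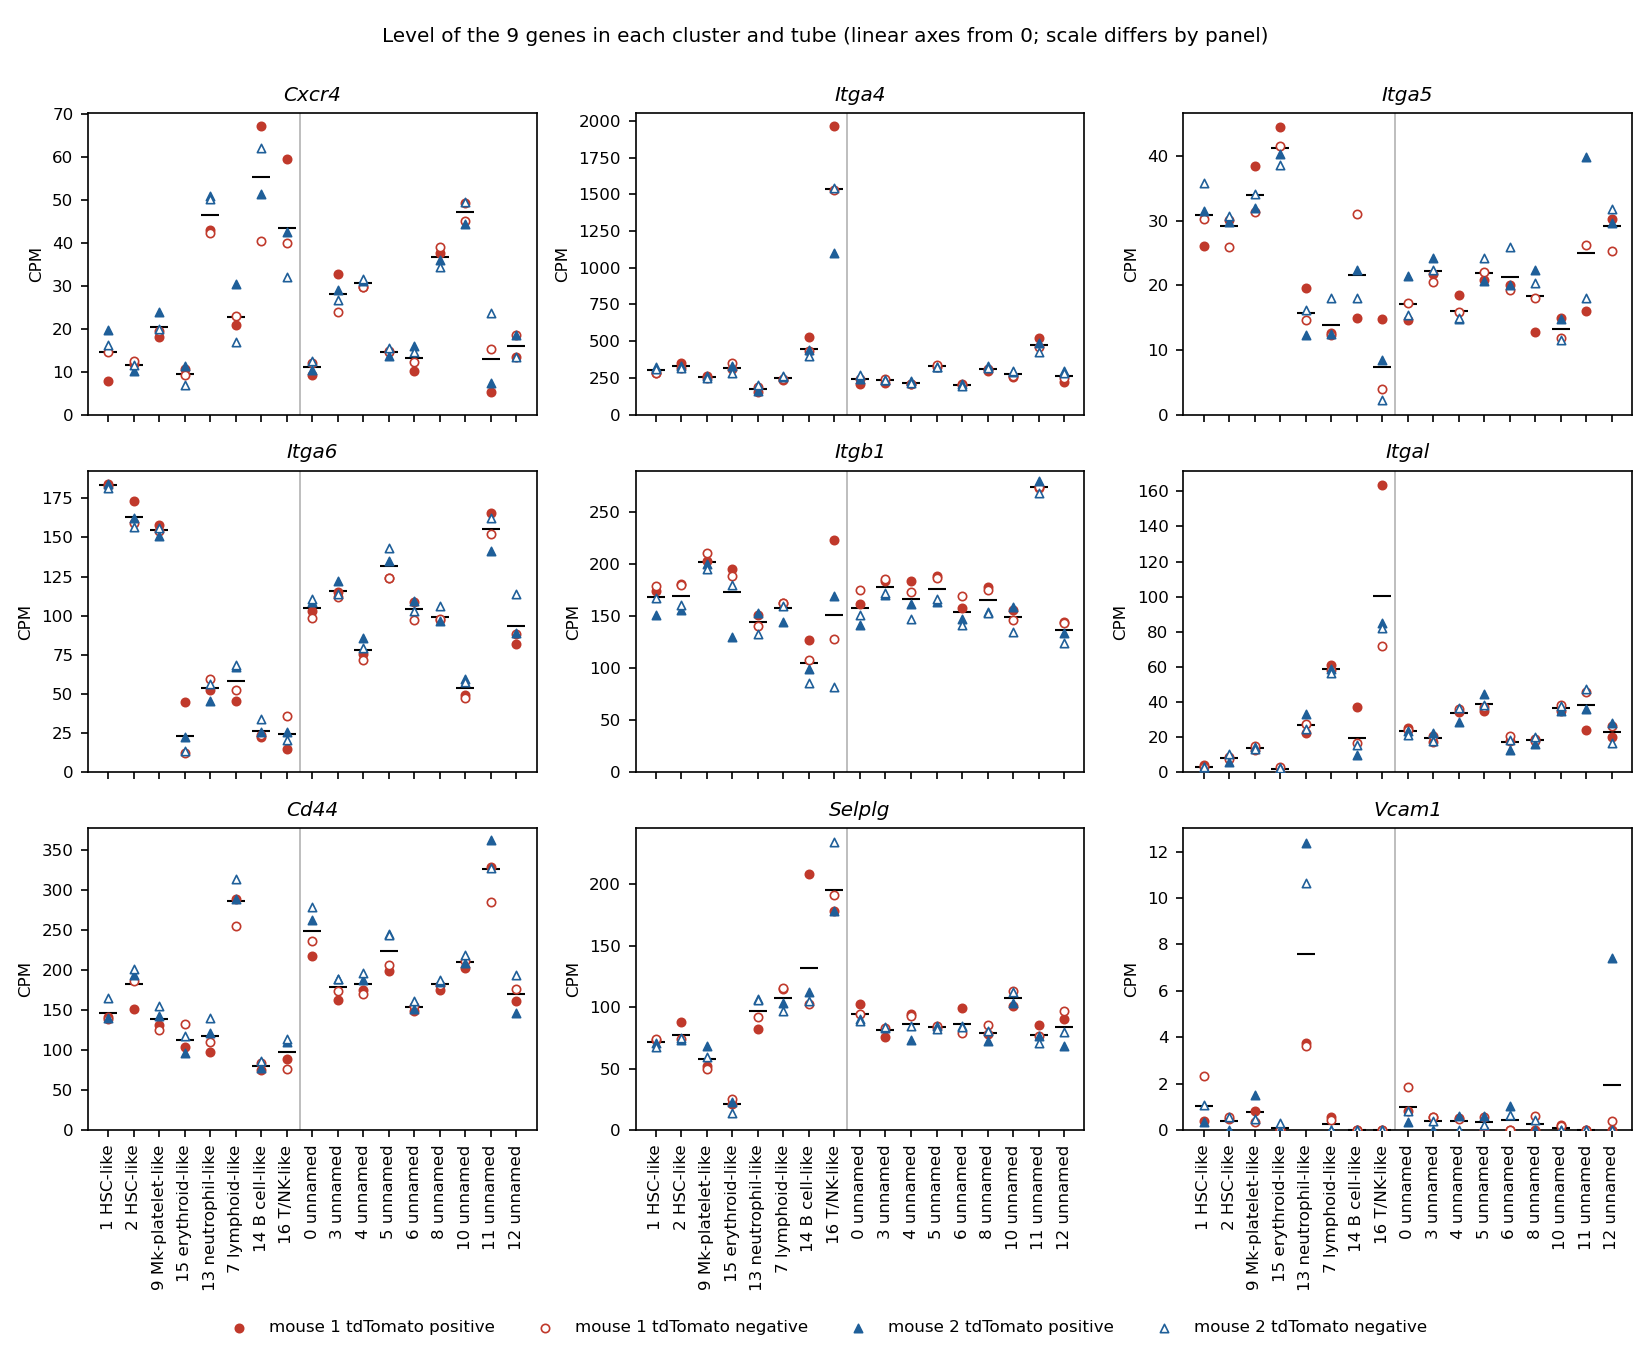
Level of each of the 9 genes (CPM, linear axis from 0, scale differing by panel) in each of 17 clusters; points are the 4 tubes and the short bar is their mean. Itga6 is highest in cluster 1 and lowest in cluster 15. Itgal is lowest in cluster 15 at 1.90 CPM, next lowest in cluster 1 at 3.28 CPM, and highest in cluster 16 at 100.5 CPM. The points of both gates lie together in the larger clusters.

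Among the receptors, Cxcr4, the receptor that holds stem cells to CXCL12, was lower in HSC-like cells than in all other cells summed. Its HSC-like level was 9.68 and 13.7 CPM in the positive and negative tubes of mouse 1, and 14.7 and 13.5 CPM in those of mouse 2. The other cells were at 28.3, 27.1, 26.6 and 25.3 CPM in the same order. That sum pools clusters well above HSC-like cells with clusters at their level, listed below. No HSC-like tube reached any tube of the other cells, and the mean ratio was 0.49 (log2 -1.02 ± 0.30, SD, n = 4 tubes, from log2 of CPM plus a pseudocount of 1).

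The clusters highest in Cxcr4 were cluster 14 (B cell-like, 55.2 ± 11.9 CPM), cluster 10 (unnamed, 47.0 ± 2.69), cluster 13 (neutrophil-like, 46.5 ± 4.62) and cluster 16 (T and NK cell-like, 43.4 ± 11.6). Cluster 10 met no marker class. Its 10 leading genes held Dntt and Il7r, genes of early lymphoid cells, but began with Cox6a2, Col19a1 and Kcng1 and also held Mpeg1 and Ly86. Next came cluster 8, led by the mitosis genes Aspm and Cenpf, at 36.8 ± 1.95 CPM. Clusters 4 and 3, with the cell cycle genes Ung and E2f1 among their leading genes, followed at 30.5 ± 0.99 and 28.1 ± 3.73 CPM. HSC-like clusters 1 and 2 were at 14.61 ± 4.90 and 11.47 ± 0.99 CPM, a level that was not particular to them. Unnamed clusters 12, 5, 6, 11 and 0 lay at 16.02, 14.63, 13.19, 12.85 and 11.04 CPM. The range over tubes of each of these overlapped that of cluster 1. Cluster 15 (erythroid-like) was lowest at 9.48 ± 1.95 CPM. The ranges over tubes overlapped for 15 of 16 neighbours in this order, so that neighbours were not set apart, and the only gap lay between clusters 8 and 4. Lymphoid-like cluster 7 lay lower than cluster 10, at 22.8 ± 5.68 CPM. At a depth fixed at 4000 UMIs a cell, 5.25% of HSC-like cells were expected to show a Cxcr4 UMI, against 16.2% of neutrophil-like and 24.6% of B cell-like cells. The B cell-like share rests on 124 of 195 cells, since 71 were shallower, and ran from 17.1 to 28.0% over the tubes. The shares without this thinning were 8.65%, 258 of 430 cells and 39.5%, at median depths of 6797, 25385 and 7144 UMIs.

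Itga6, the laminin-binding alpha chain, was highest in HSC-like cells. Cluster 1 was at 184.1 and 182.6 CPM in the tubes of mouse 1 and at 184.0 and 181.9 CPM in those of mouse 2. Cluster 2 followed at 162.9 ± 7.43 CPM, cluster 11 at 155.4 ± 10.8 and megakaryocyte-platelet-like cluster 9 at 154.7 ± 2.94. All 4 tubes of cluster 1 lay above all tubes of cluster 2, while clusters 2, 11 and 9 overlapped. HSC-like cells were 2.96 times as high as lymphoid-like cells (log2 1.57 ± 0.31) and only 1.12 times as high as megakaryocyte-platelet-like cells (log2 0.16 ± 0.04), in 4 of 4 tubes each.

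At the low end of Itga6 were cluster 14 (26.4 ± 5.13 CPM), cluster 16 (24.2 ± 8.93) and cluster 15 (23.2 ± 14.98), which overlapped. Over all cells mouse 2 was higher, at 116.5 and 114.9 CPM against 96.97 and 96.12 CPM in mouse 1. In HSC-like cells alone mouse 2 had 172.8 and 167.4 CPM and mouse 1 had 179.3 and 172.2 CPM, so the order of the mice did not carry over. It did in other clusters: lymphoid-like cells had 67.1 and 68.4 CPM in mouse 2 and 45.5 and 52.8 CPM in mouse 1. Both tubes of mouse 2 were also above both of mouse 1 in clusters 0, 4, 5, 10, 12 and 14. In the remaining clusters the tubes of the mice overlapped. The share of lymphoid-like cells, which are low in Itga6, was 9.93% and 10.5% of the tubes of mouse 1 and 3.41% and 3.97% of those of mouse 2, and its part in the difference over all cells was not tested.

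Itgal, the alpha chain of the leukocyte integrin that binds ICAMs, was lower in HSC-like than in lymphoid-like cells, the reverse of Itga6. The reversal did not hold over all clusters: the Pearson r of Itga6 and Itgal over 17 clusters was -0.11, and both were lowest in erythroid-like cells. HSC-like cells were at 6.46 and 4.99 CPM in mouse 1 and at 4.45 and 7.22 CPM in mouse 2. Lymphoid-like cells were at 61.2, 58.5, 59.0 and 56.4 CPM in the same tubes. No tubes overlapped, and HSC-like cells were 8.93 times lower than lymphoid-like cells (log2 -3.16 ± 0.29).

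Within the HSC-like cells Itgal also differed: cluster 1 was at 3.28 ± 0.73 CPM and cluster 2 at 8.22 ± 1.99 CPM, with no overlap. T and NK cell-like cells were highest at 100.5 ± 42.4 CPM, and erythroid-like cells were lowest at 1.90 ± 1.32 CPM. At 4000 UMIs a cell, 1.09% of cluster 1 cells were expected to show an Itgal UMI, against 1.33% of erythroid-like cells, where the gene had 13 UMIs in 167 cells. The share was 3.11% in cluster 2, 5.43% in megakaryocyte-platelet-like cells and 20.3% in lymphoid-like cells. Cluster 1 was above erythroid-like cells in mean CPM and below them in this share, so no order between them is read, and the level that free RNA gives was not measured. Without thinning the shares were 1.91% in cluster 1 (median 6410 UMIs) and 5.99% in erythroid-like cells (median 34489 UMIs). Clusters 5, 11 and 10 followed lymphoid-like cells at 38.9, 38.3 and 36.4 CPM. Among the genes that led cluster 5 was Selp, the gene of P-selectin, which had been left out of clustering.

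Itga5, the fibronectin-binding chain, was highest in erythroid-like cells (41.3 ± 2.48 CPM), then in megakaryocyte-platelet-like cells (34.0 ± 3.22) and cluster 1 (30.95 ± 4.00). Its HSC-like level was 28.0 and 28.4 CPM in mouse 1 and 30.6 and 32.9 CPM in mouse 2, and its lymphoid-like level was 12.6, 12.3, 12.5 and 18.1 CPM. HSC-like cells lay 2.10 times above lymphoid-like cells (log2 1.07 ± 0.17) with no overlap of tubes. Erythroid-like cells were the only cluster set apart from its neighbour in the order, since the ranges of 15 of 16 neighbours overlapped. The lowest mean, 7.40 ± 5.62 CPM in T and NK cell-like cells, rests on 4 UMIs.

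Itga4, which binds VCAM1 and fibronectin, was well counted in every cluster. T and NK cell-like cells were far above the rest, at 1963 and 1528 CPM in mouse 1 and 1102 and 1543 CPM in mouse 2. Cluster 11 (473.9 ± 41.3 CPM) and B cell-like cells (449.8 ± 56.0) came next. Below them lay a run of clusters from 329.1 ± 15.3 CPM (cluster 2) down to 204.4 ± 4.91 (cluster 6), in which each overlapped its neighbour, and neutrophil-like cells were lowest at 176.3 ± 19.8 CPM. HSC-like cells, at 314.8, 297.5, 328.5 and 314.8 CPM, were 1.26 times as high as lymphoid-like cells (log2 0.33 ± 0.07).

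Itgb1, the beta chain shared by Itga4, Itga5 and Itga6, varied least. Its mean fell from 273.5 ± 4.86 CPM in cluster 11 and 202.1 ± 6.41 in megakaryocyte-platelet-like cells to 104.9 ± 17.1 in B cell-like cells, a range of 2.61 times, and 14 of 16 neighbours overlapped. HSC-like cells had 177.3 and 179.5 CPM in mouse 1 and 153.9 and 163.5 CPM in mouse 2, against 172.6, 171.3, 162.0 and 158.5 CPM in the other cells. These ranges overlapped (log2 0.02 ± 0.06). By the same measure of highest over lowest cluster, Itgal ranged 52.9 times, Selplg 9.43, Itga4 8.70, Itga6 7.90, Cxcr4 5.82, Itga5 5.58 and Cd44 4.06 times.

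Cd44, the hyaluronan receptor, was highest in cluster 11 (326.0 ± 31.9 CPM) and lymphoid-like cells (286.8 ± 23.9), followed by cluster 0, led by Wfdc18, Ifit1 and Ccl3, at 249.1 ± 27.4 CPM. HSC-like cells were at 145.5 and 159.6 CPM in mouse 1 and at 167.9 and 185.7 CPM in mouse 2, below every lymphoid-like tube (255.6 to 313.7 CPM). The difference was 1.74 times (log2 -0.80 ± 0.13). Cluster 1 was lower than cluster 2, at 146.1 ± 12.4 against 183.0 ± 22.3 CPM, but their tubes overlapped. B cell-like cells were lowest, at 80.3 ± 5.49 CPM.

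Selplg, which encodes the main selectin ligand, was lowest in erythroid-like cells at 21.2, 25.4, 22.4 and 13.95 CPM. Megakaryocyte-platelet-like cells followed at 57.4 ± 8.55 CPM and cluster 1 at 71.6 ± 2.83, and T and NK cell-like cells were highest at 195.7 ± 26.8 CPM. HSC-like cells had 80.1 and 74.1 CPM in mouse 1 and 71.8 and 71.9 CPM in mouse 2, and lymphoid-like cells had 114.7, 115.6, 103.7 and 96.9 CPM. HSC-like cells were 1.44 times lower (log2 -0.52 ± 0.09), without overlap of tubes. The erythroid-like and megakaryocyte-platelet-like tubes did not overlap, nor did those of megakaryocyte-platelet-like cells reach any tube of HSC-like cells.

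**Figure D2:**
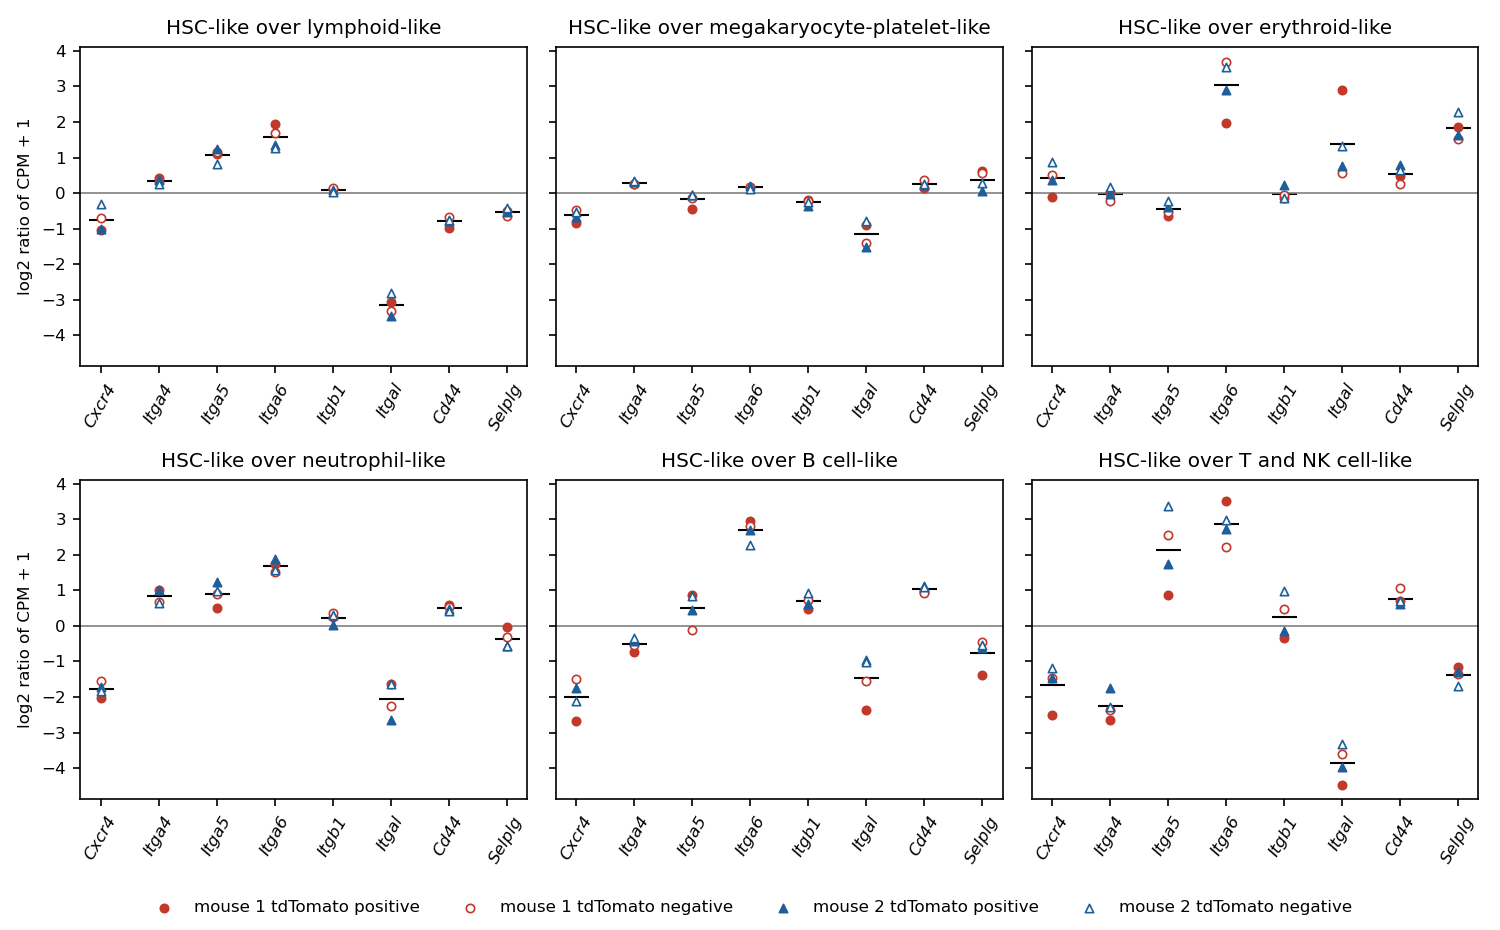
Log2 ratio of HSC-like cells over each other named class, from CPM plus 1, for 8 genes (Vcam1 is left out for its few UMIs); points are the 4 tubes and the bar is their mean. Itga6 lies above 0 in all 6 panels, Itgal lies below 0 in all but the erythroid-like one, and Itgb1 stays close to 0 in most.

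Vcam1, the ligand, was close to absent: 230 UMIs in 149 of 32330 cells, 0.461% of cells (exact 95% interval 0.390 to 0.541%, counting error only). Of these, 62 UMIs lay in 31 of 430 neutrophil-like cells (7.21%, interval 4.95 to 10.1%), where the level was 3.73 and 3.62 CPM in mouse 1 and 12.4 and 10.7 CPM in mouse 2. Both tubes of mouse 2 were above both of mouse 1, and so was the summed level of 12 macrophage and dendritic marker genes in this cluster, at 146.2 and 77.1 against 18.4 and 30.4 CPM. In that list 11 of 12 genes had UMIs in the cluster and Vsig4 was at 0. HSC-like cells held 45 Vcam1 UMIs in 32 of 6899 cells (0.464%), and no Vcam1 UMI was seen in 702 cells of cluster 11, 195 B cell-like or 78 T and NK cell-like cells. These counts of 0 allow shares of cells with a UMI of up to 0.427%, 1.54% and 3.85%, and set no limit on cells that express the gene.

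Outside the neutrophil-like cluster, 52 of 118 cells with Vcam1 (44.1%) also held a UMI of the macrophage and dendritic list, against 8.18% of the cells without Vcam1. The complement genes C1qc, C1qb and C1qa, typical of marrow macrophages, were the most frequent. Median depths of these cells were 9413 UMIs with Vcam1 and 8470.5 without. Within the neutrophil-like cluster the order was the opposite: 8 of 31 cells with Vcam1 (25.8%) held a UMI of this list, against 46.1% of those without, at median depths of 18561 and 25579 UMIs. Outside that cluster the endothelial and stromal list, 11 genes, had a UMI in 63.6% of cells with Vcam1 and 59.2% of those without. Within it the shares were 22.6% and 37.1%. The part of other cells, or of their free RNA, in the Vcam1 counts was not tested.

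The order over clusters can be set beside other genes. Of 8833 genes at 10 CPM or more, those most like a gene by Pearson r of log2 levels over the 17 clusters were Ghr (0.98) and Inf2 (0.98) for Itga6, St3gal4 (0.95) and Suclg2 (0.93) for Itgb1, and Padi2 (0.94) and Adgrg3 (0.93) for Itgal. For Cd44 they were Them7 (0.94) and Msrb3 (0.91), for Selplg Ift22 (0.94) and Mpnd (0.93), for Itga5 Acbd6 (0.94) and Ppp3r1 (0.91), for Itga4 Nck2 (0.94) and Dnajc7 (0.87), and for Cxcr4 Pop4 (0.89) and Zbtb8os (0.85). Among the 9 genes themselves Itgal and Selplg were most alike (r = 0.79), and Itga5 ran against both (r = -0.82 with Itgal and -0.81 with Selplg). These are descriptions over 17 points that share libraries and differ in depth.

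None of the 9 genes was called between the tdTomato gates in all cells. Cxcr4 was at 26.2 and 25.5 CPM in the positive and negative tubes of mouse 1 and at 24.5 and 23.1 CPM in those of mouse 2. Cd44 was at 179.3 against 187.2 CPM in mouse 1 and at 191.1 against 200.2 CPM in mouse 2, lower in the positive tube of both. By edgeR's quasi-likelihood test with the mouse as a block, 0 of 9 had a Benjamini-Hochberg adjusted p under 0.05, against 0.796% of all 16586 genes tested (132 genes). At an unadjusted p under 0.05 the count was also 0 of 9, and DESeq2 called 0. The largest differences were Cxcr4 (log2 0.08 ± 0.05, SE, adjusted p = 0.933) and Cd44 (log2 -0.05 ± 0.03, adjusted p = 0.864).

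The edgeR intervals of the gate difference in all cells were narrow for the abundant genes. For Itga4 the 95% interval of log2 was -0.07 to 0.05, for Itga6 -0.03 to 0.09, for Itgb1 -0.04 to 0.08 and for Selplg -0.06 to 0.06. Those of the less abundant Itga5 (-0.07 to 0.14) and Itgal (-0.11 to 0.09) were wider, and that of Vcam1 (-0.51 to 0.52) was widest. These errors pool the spread over genes and do not measure the spread between mice. Leaving out 1 tube, which also drops the mouse block, moved some estimates beyond these intervals (Itgal -0.19 to 0.19, Itga6 -0.078 to 0.13, Selplg -0.11 to 0.10).

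**Figure D3:**
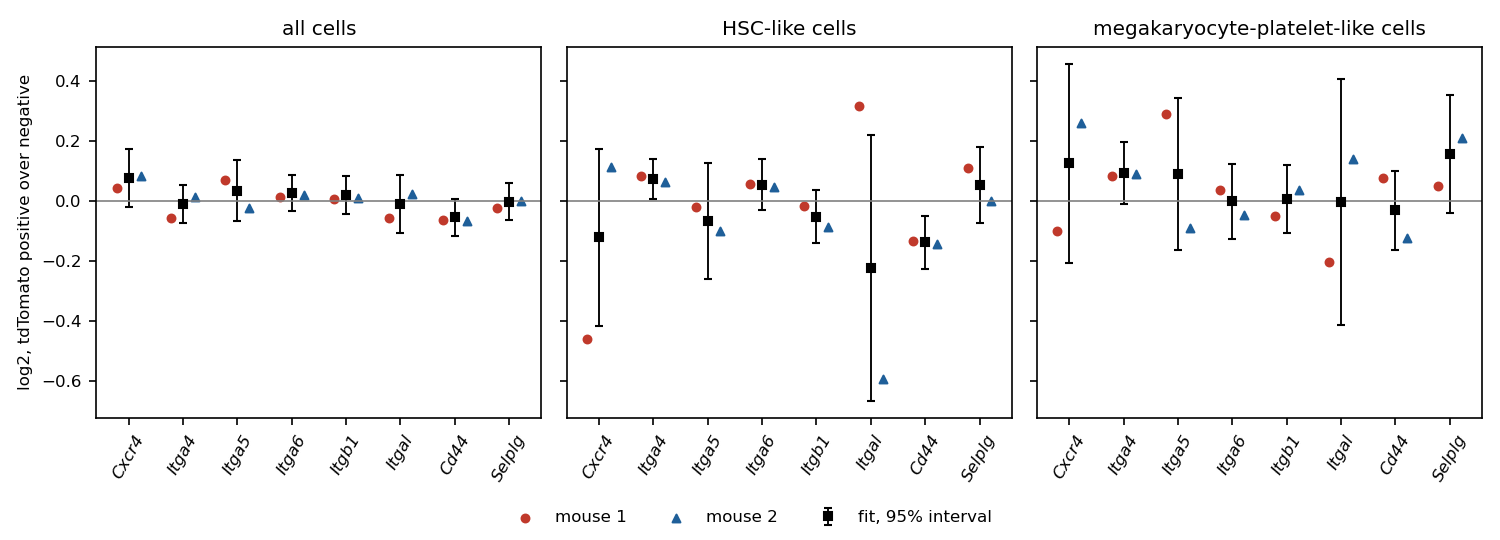
Log2 difference of tdTomato-positive over negative cells for 8 genes in all cells, HSC-like cells and megakaryocyte-platelet-like cells; circles and triangles are the 2 mice (from CPM plus 1), squares the edgeR fit with its 95% interval. Cd44 in HSC-like cells and Itga4 in HSC-like cells are the 2 genes whose interval leaves out 0, and neither passed the adjusted test; Vcam1 is not drawn.

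In HSC-like cells 0 of 8 genes tested were called, against 0.0222% of 13537 genes (3 genes); Vcam1 was left out by the filter on low counts. Cd44 came nearest: 145.5 against 159.6 CPM in mouse 1 and 167.9 against 185.7 CPM in mouse 2, a log2 difference of -0.14 ± 0.04 (edgeR adjusted p = 0.627, unadjusted p = 0.00222). It was lower in the positive tube of both mice, but the negative tube of mouse 1 was lower than the positive tube of mouse 2. The difference was not even within the HSC-like cells. In cluster 1 the positive tube was higher in mouse 1 (141.0 against 138.6 CPM) and lower in mouse 2 (140.1 against 164.6 CPM), and in cluster 2 it was lower in both. Over all 17 clusters Cd44 was lower in the positive tube of both mice in 9, higher in both in 1 and split in 7. Itga4 was higher in both mice (log2 0.07 ± 0.03, edgeR adjusted p = 0.906, unadjusted p = 0.0332). At an unadjusted p under 0.05 these 2 were the only ones of 8, and DESeq2 called 0.

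Low counts limit what could be seen for Cxcr4 and Itgal in HSC-like cells. Cxcr4 was lower in the positive tube of mouse 1 (9.68 against 13.7 CPM) and higher in that of mouse 2 (14.7 against 13.5 CPM), with a log2 interval of -0.42 to 0.17. Itgal was higher in mouse 1 (6.46 against 4.99 CPM) and lower in mouse 2 (4.45 against 7.22 CPM), with an interval of -0.67 to 0.22. The 2 mice thus moved in opposite directions for both genes.

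In megakaryocyte-platelet-like cells 0 of 8 genes tested were called, against 0.253% of 11876 genes (30 genes). The largest estimate was that of Selplg, at 51.7 against 49.9 CPM in mouse 1 and 68.7 against 59.4 CPM in mouse 2 (log2 0.16 ± 0.10, edgeR adjusted p = 0.835). At an unadjusted p under 0.05 the count was 0 of 8, and DESeq2 called 0. Whether a gate difference itself differed between HSC-like and other cells was tested with an interaction term, which called 0 of 9 genes and 0% of 14686 genes. At an unadjusted p under 0.05 that term picked Vcam1 alone, whose fitted size rests on 45 HSC-like UMIs, and DESeq2 called 0. The gate difference between chemistries was tested in the same way and called 0 of 9 genes (0 at an unadjusted p under 0.05, and 0 by DESeq2) against 0.046% of 15218 genes (7 genes).

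Other genes of homing and adhesion were tested between the gates in the same fits. Of 89 listed genes, 80 were tested in all cells, 4 were higher in positive cells and none was lower, against 0.796% of all genes called in either direction, with a median log2 of 0.02 against 0.00 over all genes tested. They were Ccr2, a chemokine receptor of monocytes (7.57 against 3.82 CPM in mouse 1 and 4.79 against 2.84 CPM in mouse 2; log2 0.90 ± 0.11, edgeR adjusted p = 6.91e-08), Itga8 (log2 1.75 ± 0.44, adjusted p = 0.0321, 59 UMIs in all), Fn1, which encodes fibronectin (log2 1.02 ± 0.24, adjusted p = 0.0200, 224 UMIs), and Itga2b, the platelet integrin chain (25.2 against 23.4 CPM in mouse 1 and 37.6 against 31.8 CPM in mouse 2; log2 0.19 ± 0.05, adjusted p = 0.0259). DESeq2 called none of the 4. None passed with any 1 of the 4 tubes left out, which also drops the mouse block: log2 then ranged from 0.50 to 1.22 for Ccr2, 1.18 to 2.49 for Itga8, -0.055 to 1.79 for Fn1 and -0.087 to 0.42 for Itga2b.

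Cell makeup also differed between the gates. Neutrophil-like cluster 13 held 48.2% of the Ccr2 UMIs, 47.3% of the Fn1 UMIs and 45.8% of the Itga8 UMIs, and it made up 3.31% of the positive and 1.29% of the negative tube of mouse 1, and 1.02% and 0.856% in mouse 2. The summed level of 15 granulocyte and monocyte markers, none at 0, was 2932 against 1687 CPM in mouse 1 and 1255 against 1241 CPM in mouse 2. Ccr2 was also higher in the positive tubes within cluster 13 (55.7 against 48.2 CPM in mouse 1 and 109.1 against 70.3 CPM in mouse 2). Cluster 10, with 20.7% of the Ccr2 UMIs, had 15.6 against 7.04 CPM in mouse 1 and 12.8 against 5.82 CPM in mouse 2. Megakaryocyte-platelet-like cluster 9 held 29.5% of the Itga2b UMIs and made up 5.43% against 4.46% in mouse 1 and 8.14% against 6.35% in mouse 2. Without cluster 13, a choice made after seeing the data, Fn1 was at log2 0.71 (edgeR adjusted p = 0.773), and without clusters 9 and 13 Itga2b was at 0.08 (adjusted p = 0.983). Ccr2 and Itga8 stayed past the threshold in both. In HSC-like cells 0 of 62 listed genes tested were called; 4 had an unadjusted p under 0.05, and the highest members of their roles, such as Tln1 (457.1 ± 12.2 CPM), which links integrins to actin, and Cd47 (551.4 ± 35.8 CPM), were among those not called. In megakaryocyte-platelet-like cells 1 of 56 was called, against 0.253% of all genes: Rap1b, a small GTPase that activates platelet integrins, at 561.5 against 440.6 CPM in mouse 1 and 464.1 against 437.2 CPM in mouse 2 (log2 0.22 ± 0.04, edgeR adjusted p = 0.000203). It did not pass with any 1 tube left out (log2 0.068 to 0.38) or by DESeq2. The summed level of 15 megakaryocyte and platelet markers in that cluster, none at 0, was also higher in the positive tubes, at 1788 against 1150 CPM and 1463 against 1191 CPM, and its part in the Rap1b difference was not tested.

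Most of these genes moved far more with the chemistry than with the gate, but Itga5 did not (log2 -0.02 against 0.03 in all cells). Of the 9 genes, 7 were higher in GEM-X, against 38.4% of all 15218 genes tested, and 1 was lower, against 36.6%, and 75.0% of all genes were called in either direction. Itga4 was at 298.5 CPM in GEM-X and 182.3 CPM in v3.1 in the positive tube of mouse 1, and at 309.4 and 189.7, 334.8 and 203.5, and 330.2 and 206.2 CPM in the other tubes. Every GEM-X value lay above every v3.1 value, and the difference was 1.65 times (log2 0.73 ± 0.02, edgeR adjusted p = 6.18e-19). Cxcr4 rose by log2 0.77 ± 0.04, Itgb1 by 0.59 ± 0.02, Cd44 by 0.57 ± 0.02, Itga6 by 0.53 ± 0.02 and Itgal by 0.24 ± 0.04 (edgeR adjusted p from 4.28e-17 to 2.86e-05).

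Selplg was the gene that fell, from 102.0 CPM in v3.1 to 79.3 CPM in GEM-X in the positive tube of mouse 1, and likewise in the other 3 tubes (log2 -0.41 ± 0.02, edgeR adjusted p = 8.35e-13). It was lower in GEM-X in 17 of 17 clusters, while Itga4 and Itgb1 were higher in 17 of 17 and Cxcr4, Itga6 and Itgal in 16 of 17. Itga5 was not called (log2 -0.02 ± 0.05, interval -0.12 to 0.08, adjusted p = 0.711). Vcam1 passed the test (log2 0.76 ± 0.26, edgeR adjusted p = 0.0139) on 165 GEM-X and 65 v3.1 UMIs, of which 86 and 18 came from the negative tube of mouse 1; without that tube its log2 was 0.22 (adjusted p = 0.504). Of the listed homing and adhesion genes 31 of 74 tested were higher in GEM-X and 21 lower, against 38.4% and 36.6% of all genes, with a median log2 of 0.08 against -0.01 over all genes, among them Tln1 (log2 1.14 ± 0.02) higher and Icam1 (-0.62 ± 0.04) and Rac2 (-0.44 ± 0.02) lower. The chemistry and the Cell Ranger version that made the counts cannot be told apart.

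**Figure D4:**
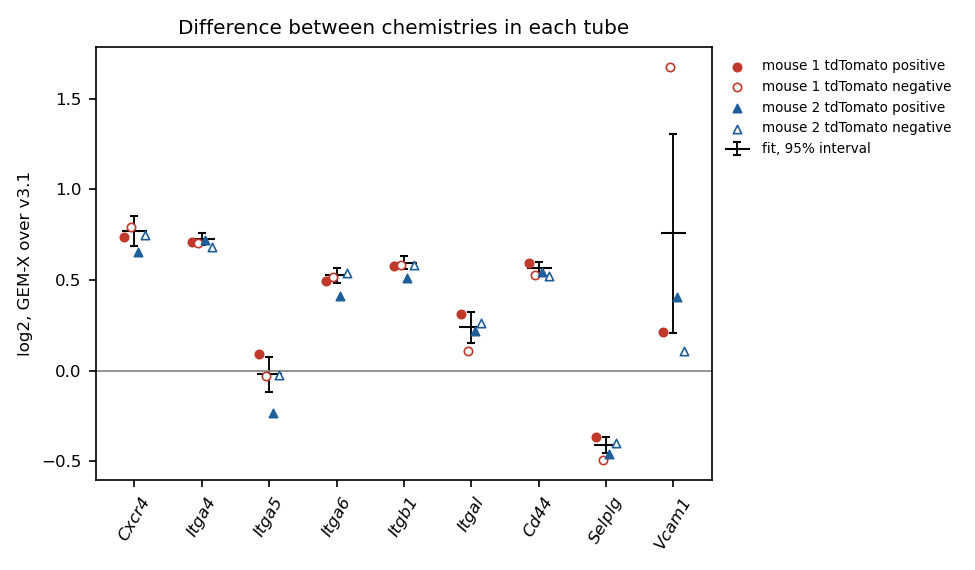
Log2 difference of GEM-X over v3.1 for each of the 9 genes; points are the 4 tubes, the bar and whiskers the edgeR fit with its 95% interval. Selplg lies below 0 in 4 of 4 tubes, Itga5 straddles 0, and the Vcam1 estimate of 0.76 rests on a single high tube.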

How the data were processed

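Both deposited matrices give raw UMI counts by gene and hashtag for called cells. Per the file headers Cell Ranger 8.0.1 made the GEM-X matrix and version 7.1.0 the v3.1 matrix. The submitters' processing notes name Cell Ranger 7.0.0 and mm10. Which matrix belongs to which chemistry was inferred from names and versions. Cells kept had 1000 or more detected genes, a mitochondrial share of UMIs up to 10% and exactly 1 hashtag (posterior 0.5 in a 2-component Gaussian mixture, scikit-learn 1.9.0), which took out 2091 GEM-X and 2364 v3.1 cells with several hashtags as doublets between tubes and 63 and 13 with none. Doublets within a tube remain; Scrublet (expected rate 0.1) called 10.2% and 10.5% of cells and found 52.3% and 46.5% of the hashtag doublets, and served as an alternative. Hashtags were read as mouse and gate from a deposited note. The labels describe the sort in 2 ways, of which the one with 4 hashed tubes was followed.

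Cells were clustered (scanpy 1.11.5, 2000 variable genes, 30 components, Leiden resolution 1) without the 9 genes, the 89 other listed genes and cell cycle genes. Naming a cluster took 3 or more markers raised by log2 0.5, and 66.7% of the detected ones. These thresholds were set after seeing the data. Summed counts per tube were tested with edgeR 4.0.16 (R 4.3.3; TMM, filterByExpr, quasi-likelihood, trended dispersion of 0.0001 or more, Benjamini-Hochberg adjustment over all genes) with the mouse or tube as block, checked on simulated data, with DESeq2 1.42.0 as an alternative. The mouse pairs the gates, and over 9368 genes of at least 10 CPM the difference between mice in the positive tubes had a Pearson r of 0.84 and a Spearman rho of 0.81 with that in the negative tubes, as a description. P-values rest on 4 tubes of 2 mice and on a spread shared over genes, and do not measure the spread between mice. Shares at fixed depth are expected values at 4000 UMIs, leaving out 1784 shallower cells, 306 of them HSC-like. Fewer cells of a type and less RNA per cell cannot be told apart in sums over all cells.

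The genes and lists were chosen with earlier results of these data known. Other homing genes that passed a test were named by the largest change, up to 4 a role. Alternatives without clusters 9 and 13 were added after seeing the data. Locations come from GENCODE M21. The result of 1 listed homing gene is not reported here.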

Additional observations from a re-analysis of the deposited data

Results flagged for a closer look

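The difference between chemistries of Itgb1, the shared beta chain, stood apart in 1 of the 4 tubes. Its log2 ratio of GEM-X over v3.1 was 0.51 in the positive tube of mouse 2 and 0.58 in the other 3 tubes (0.577 to 0.583). It was picked because the gap to the nearest tube, relative to the whole range, was above Dixon's 95% critical value for 4 samples. Of 64 groups of 4 tubes examined this was the only one, and chance alone gives about 1 in 20.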

How the results depend on the processing

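Data were also simulated with the fitted trend of spread, with no difference between mice and with changed genes drawn from all genes tested. There 16.4% of genes changed by log2 0.25 and 67.2% of those changed by 0.5 were called between the gates in HSC-like cells. The mice of these data did differ, so the shares may not hold for them. Without the replicate block (the mouse, or the tube for the chemistries), and under every other setting tried, 0 members were called between the gates in all cells, HSC-like cells and megakaryocyte-platelet-like cells and in both interaction tests. The lowest adjusted p of a member between the gates under any of these settings was 0.554. Between the chemistries 8 members were called, and 7 without the replicate block (Itgal lost), by DESeq2 (Vcam1 lost) and without the negative tube of mouse 1 (Vcam1 lost). The count of all genes called between the gates was less stable: 132 in all cells with a range of 0 to 208, 3 in HSC-like cells (0 to 8) and 30 in megakaryocyte-platelet-like cells (0 to 31). DESeq2 called 5, 0 and 2. Leaving out a tube also dropped the mouse block, since a mouse with 1 tube then adds nothing. In that case the log2 gate difference in all cells ranged from -0.017 to 0.17 for Cxcr4, -0.063 to 0.039 for Itga4, -0.096 to 0.16 for Itga5, -0.078 to 0.13 for Itga6, -0.072 to 0.10 for Itgb1, -0.19 to 0.19 for Itgal, -0.11 to 0.10 for Selplg, -0.17 to 0.21 for Vcam1, -0.087 to 0.42 for Itga2b, -0.055 to 1.79 for Fn1 and 0.50 to 1.22 for Ccr2. In HSC-like cells it ranged from -0.48 to 0.10 for Cxcr4, -0.16 to 0.047 for Itga5, -0.16 to 0.057 for Itgb1, -0.48 to 0.098 for Itgal and -0.028 to 0.14 for Selplg. In megakaryocyte-platelet-like cells it ranged from -0.093 to 0.27 for Cxcr4, -0.047 to 0.26 for Itga5, -0.050 to 0.055 for Itga6, -0.072 to 0.071 for Itgb1, -0.13 to 0.093 for Itgal, -0.15 to 0.13 for Cd44 and -0.059 to 0.31 for Selplg. The chemistry difference of Itga5 ranged from -0.043 to 0.028 without a tube. Other settings also turned the sign of gate differences near 0, and the cause was not tested. In all cells GEM-X counts alone gave Itgal 0.022, Selplg 0.015, Vcam1 -0.16 and Fn1 -0.11, leaving out Scrublet doublets gave Selplg 0.0068, no low-count filter gave Vcam1 -0.0026, leaving out cluster 13 gave Itga4 0.000596 and Vcam1 -0.34, and leaving out clusters 9 and 13 gave Vcam1 -0.60. In HSC-like cells v3.1 counts alone gave Itga5 0.048, Itgb1 0.038 and Selplg -0.024, GEM-X counts alone gave Itgal 0.027, and Leiden resolution 0.5 gave Itgal 0.30; v3.1 counts alone kept the sign of Itgal at -0.91. In megakaryocyte-platelet-like cells Itga6 was 0.00036 with no mouse block, 0.0029 by DESeq2, 0.0017 without Scrublet doublets, 0.0029 in GEM-X, 6.2e-07 in v3.1 and 0.023 at Leiden resolution 0.5. There Itgb1 was -0.049 in GEM-X and -0.010 with no low-count filter, Cd44 was 0.031 in GEM-X, Itgal was 0.18 in v3.1 and 0.081 at resolution 0.5, and Cxcr4 was -0.053 at resolution 0.5. The interaction of gate and HSC-like cells gave Itga6 -0.0057 with no low-count filter, and at resolution 0.5 Itga6 -0.012 and Itgal 0.33. Of the recomputed ratios between HSC-like cells and other classes, 184 moved by less than 1 SD over tubes and 23 moved by more. Of the 23, 12 moved with v3.1 counts alone, 4 with GEM-X counts alone, 1 without Scrublet doublets and 6 at Leiden resolution 0.5. At that resolution HSC-like was a single cluster of 3968 cells, since a cluster of 5829 cells with 11 of 15 stem cell markers raised was led by immunoglobulin genes and stayed unnamed. There the log2 ratio over other cells was -2.72 for Itgal, -0.41 for Cd44 and 0.12 for Itga4, and over megakaryocyte-platelet-like cells -1.85, 0.083 and 0.18.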

Other observations

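Other homing and adhesion genes had their own order over the clusters, given here as means ± SD over the 4 tubes with no test. S1pr1, the receptor by which blood cells leave tissues along the lipid S1P, was highest in HSC-like cluster 1, at 16.9 ± 0.89 CPM, and lowest in erythroid-like cells, at 0.21 ± 0.43 CPM. Itgb3, the beta chain of the platelet integrin, was highest in megakaryocyte-platelet-like cells, at 32.3 ± 1.88 CPM. Itgb5 was highest in cluster 0, at 41.2 ± 4.86 CPM.

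Angpt1, a niche ligand, was at 3459 ± 376.9 CPM in HSC-like cells, highest in cluster 11 at 4987 CPM and lowest in erythroid-like cells at 118.2 CPM. Cxcl12, which stromal cells make, had 18 UMIs in all cells, and Madcam1, an integrin ligand, had 2. Tppp3, which drives the Cre, had 176 UMIs in all cells. It was at 0.50 CPM in the positive and 0.49 CPM in the negative tube of mouse 1, and at 0.72 and 0.57 CPM in those of mouse 2.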
